A study of Mus musculus with 18 samples.

Results

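The levels of 9 genes of glycogen metabolism were read in mouse liver, among 54532 genes of the deposited table. The rule took them by name and used no measured value, although results of these data were known when the names were chosen. All 9 were found. Ugp2, Gys2 and Gbe1 build glycogen, Pygl and Phka2 serve its breakdown, Ppp1r3b, Ppp1r3c and Ppp1r3g steer a phosphatase to it, and Stbd1 binds it. The data are RNA-seq values of poly-A RNA from the livers of 18 male mice, 6 in each of 3 groups, of the strain C57BL/6 by the labels and C57BL/6J by the study's methods. The mice were 6 weeks old at arrival. The NC mice received normal chow and no SZ-A. The HFD mice were fed a high-fat diet for 14 weeks and stayed on it with no SZ-A. The SZ-A mice were fed the same high-fat diet for 14 weeks and, by the study's methods, stayed on it while they received SZ-A. SZ-A is the alkaloids of Ramulus Mori (Sangzhi), the mulberry twig. The description deposited with the samples gives 8 weeks of treatment and the study's text gives fewer, and neither gives the dose or route for the sequenced livers. SZ-A is an inhibitor of α-glucosidases, whose main alkaloids include 1-deoxynojirimycin and fagomine. For NC6 the diet label reads high-fat, which goes against its title, and it was kept in NC. The mice were fasted overnight before the livers were taken, so the levels are those of fasted liver. Glycogen itself was not measured in these livers.

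Glycogen is a branched polymer of glucose that liver stores after a meal and breaks down between meals to keep blood glucose up. Glucose is carried in as UDP-glucose, added to the chain by glycogen synthase and branched by a branching enzyme, and glycogen phosphorylase releases it again. Hormones set the balance mainly through phosphorylation, which switches phosphorylase on and synthase off, and protein phosphatase 1 reverses this when a targeting subunit brings it to the glycogen particle. Those switches act on the proteins and are not seen in RNA.

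Values are FPKM, fragments scaled to each gene's length and to a library size set by the authors, so levels can be compared between genes. FPKM times gene length gave whole fragments for 100% of the values, within 0.05 of a fragment, and the depth worked back in this way was 17163191 to 20493907 fragments on genes per mouse. The summed FPKM was lower in HFD (353946 to 424825) than in NC (402436 to 489187), with a partial overlap. NC5 had the lowest mean correlation with its own group, at 0.951 over the genes tested. For NC6, the mouse with the high-fat label, it was 0.971 with NC, 0.957 with HFD and 0.963 with SZ-A. HFD5 and SZ-A2 had a slightly higher mean correlation with the mice of the other group than with their own (0.969 against 0.967, and 0.973 against 0.968). Calls were made in a limma fit over the 10216 genes with a mean of at least 1 FPKM, at a fold change above 1.2 and an adjusted p below 0.05. Log2 fold changes are of FPKM + 0.1, each with its 95% interval.

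The start regions of Gbe1, Pygl and Stbd1 are shown because Gbe1 and Pygl were called higher in both comparisons with NC, and Stbd1 was the member that separated SZ-A from HFD. Each runs from 250 bases before to 50 bases after a RefSeq start on GRCm38.p6, 5′ to 3′ along the gene, with GC boxes (GGGCGG, or CCGCCC on the other strand) in capitals. Gbe1 is chr16:70313699-70313998 on the plus strand, Pygl is chr12:70227634-70227933 on the minus strand and Stbd1 is chr5:92602801-92603100 on the plus strand. The Pygl start lies 3805 bases inside the gene as the deposited table bounds it, the Stbd1 start 10 bases inside and the Gbe1 start at the table's first base.
Gbe1: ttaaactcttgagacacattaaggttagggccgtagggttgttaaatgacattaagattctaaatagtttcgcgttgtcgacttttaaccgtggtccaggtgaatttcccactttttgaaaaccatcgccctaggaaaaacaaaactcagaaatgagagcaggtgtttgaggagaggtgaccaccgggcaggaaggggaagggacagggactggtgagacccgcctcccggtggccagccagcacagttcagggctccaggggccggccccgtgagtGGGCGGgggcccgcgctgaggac
Pygl: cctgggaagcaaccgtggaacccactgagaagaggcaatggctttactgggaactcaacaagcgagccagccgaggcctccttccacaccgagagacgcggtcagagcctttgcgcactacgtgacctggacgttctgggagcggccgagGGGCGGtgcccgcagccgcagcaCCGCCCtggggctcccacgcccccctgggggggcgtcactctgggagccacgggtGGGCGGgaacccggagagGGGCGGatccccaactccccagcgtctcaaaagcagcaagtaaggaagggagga
Stbd1: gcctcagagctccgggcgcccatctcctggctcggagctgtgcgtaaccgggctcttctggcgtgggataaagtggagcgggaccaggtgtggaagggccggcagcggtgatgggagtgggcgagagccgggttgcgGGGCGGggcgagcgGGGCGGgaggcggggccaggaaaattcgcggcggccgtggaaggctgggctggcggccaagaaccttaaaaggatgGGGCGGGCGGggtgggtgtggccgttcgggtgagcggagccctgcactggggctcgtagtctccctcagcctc
Stbd1 and Pygl held 4 GC boxes each, and Gbe1 held 1, at 27 bases after the start. In Stbd1 the pair nearest the start overlap, beginning 23 and 19 bases before it. Such a box occurred in 35.7% of 32851 RefSeq promoters of this length. GC content was 70.7% in Stbd1, 67.0% in Pygl and 54.3% in Gbe1, beside a median of 52.7% over all promoters. RefSeq promoters were held for 7 members, with 2 starts for Ugp2 and 1 for each of the others, and for neither Gys2 nor Ppp1r3b. An E-box (CACGTG), the letters that clock proteins and other factors bind, was in 1 of the 7, Ppp1r3c, at 104 bases before the start, and in 7.15% of all promoters. A CRE (TGACGTCA), FOXO site (GTAAACA), D-box (TTATGTAA) or TATA box (TATAAA) was in none of the windows of the 7 on either strand.

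In HFD liver the genes that build glycogen moved in opposite directions. Gys2, the liver glycogen synthase, fell, while Ugp2 and Gbe1, the enzymes on each side of it, rose. Pygl, the liver phosphorylase, rose too. Of the 9 members 5 were called in HFD against NC, 3 higher and 2 lower, where 20.2% of all genes tested were called, 10.7% higher and 9.49% lower. Ppp1r3g, which reached the expression limit through NC alone, was among the 5. The groups did not overlap for 2 members, Gbe1 upwards and Gys2 downwards, and for 10.5% of all genes, 5.48% upwards and 4.97% downwards. The median absolute log2 fold change was 0.43 over the members and 0.20 over all genes.

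**Figure D1:**
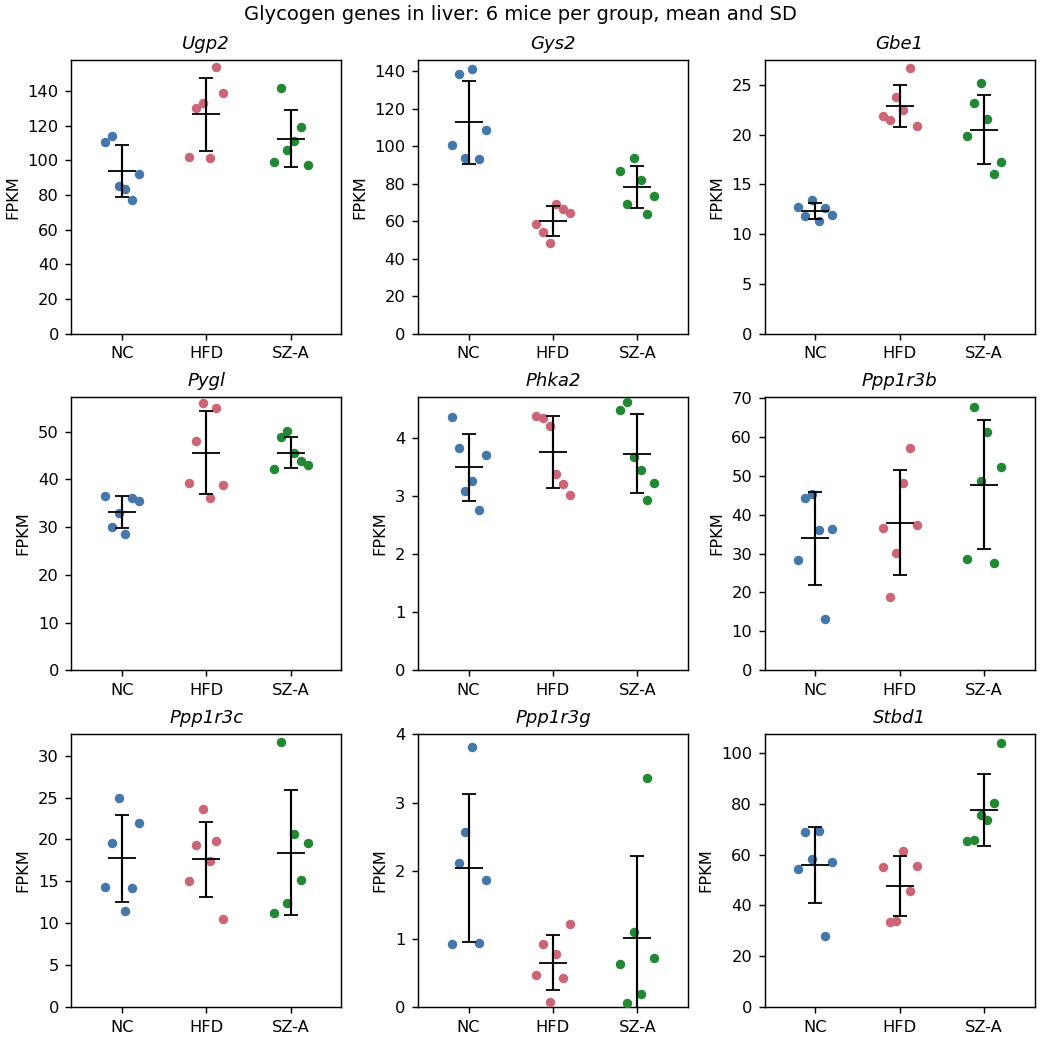
FPKM of the 9 genes in each mouse (points), with the mean (bar) and SD of the 6 mice per group; every axis starts at 0, so the lower SD of Ppp1r3g in SZ-A ends at the axis. Gys2 in HFD (highest 69.3) lies below every NC mouse (lowest 93.0), Gbe1 in HFD (lowest 20.9) above every NC mouse (highest 13.5), and Stbd1 in SZ-A (lowest 65.4) above every HFD mouse (highest 61.4).

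Gys2 (ENSMUSG00000030244, chr6:142422613-142473109, minus strand) encodes the enzyme that lengthens the glucose chain. The 6 NC mice ranged from 93.0 to 141.2 FPKM (median 104.5), the HFD mice from 48.1 to 69.3 (median 61.3) and the SZ-A mice from 63.5 to 93.6 (median 77.6). All 6 HFD mice lay below all NC mice, and SZ-A met NC only at its top, where 1 mouse reached 93.6. The means were 112.6 ± 21.9, 60.0 ± 8.05 and 78.0 ± 11.3 (SD, n = 6 each). Gys2 was thus lower in HFD than in NC by a log2 fold change of -0.90 (-1.18 to -0.61; limma adjusted p = 0.000608), a level 0.538 times that of NC. In SZ-A it was still lower than in NC (-0.52, -0.81 to -0.23; limma adjusted p = 0.0271). Against HFD all 6 SZ-A mice lay above the HFD mean, but the difference of 0.38 (0.13 to 0.62) was not called (limma adjusted p = 0.159).

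Gbe1 (ENSMUSG00000022707, chr16:70313949-70569716, plus strand), the branching enzyme, was the steadiest member in NC, where it ranged from 11.4 to 13.5 FPKM (median 12.3). HFD mice ranged from 20.9 to 26.7 (median 22.2) and SZ-A mice from 16.1 to 25.2 (median 20.8). Both high-fat groups lay wholly above NC and overlapped each other. Gbe1 rose 1.85 fold (1.65 to 2.07) in HFD against NC, a log2 fold change of 0.89 (limma adjusted p = 2.15e-05). It was 1.64 fold (1.40 to 1.93) higher in SZ-A than in NC (log2 0.72, limma adjusted p = 0.00197). The difference between SZ-A and HFD was -0.17 on the log2 scale, with an interval of -0.41 to 0.07.

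Ugp2 (ENSMUSG00000001891, chr11:21321138-21371201, minus strand) makes UDP-glucose, the activated sugar that synthase uses and that other pathways share. NC mice ran from 76.9 to 113.9 FPKM (median 88.7), HFD mice from 101.4 to 154.1 (median 131.6) and SZ-A mice from 97.6 to 141.9 (median 108.6). HFD and NC overlapped, yet each HFD mouse was above the NC mean. Ugp2 rose in HFD against NC by 0.43 on the log2 scale (0.15 to 0.71; limma adjusted p = 0.0328), and this call was lost, at an adjusted p of up to 0.0682, when any 1 of NC3, NC4, NC5, NC6, HFD2, HFD3, HFD5 or HFD6 was left out. It was 0.0747 with the replicate number as a block. SZ-A differed from HFD by -0.16 (-0.43 to 0.10) and from NC by 0.27 (0.01 to 0.53; adjusted p = 0.184), neither of them called. A microRNA gene and a processed transcript overlap Ugp2 and had mean levels of 0.066 and 0.093 FPKM.

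Pygl (ENSMUSG00000021069, chr12:70190811-70231488, minus strand) encodes the phosphorylase that cuts glucose from glycogen. The values ran from 28.7 to 36.5 FPKM for NC (median 34.2), from 36.0 to 55.9 for HFD (median 43.7) and from 42.1 to 50.1 for SZ-A (median 44.7). Only the lowest HFD value lay within the NC range, and SZ-A did not overlap NC at all. Pygl rose in HFD against NC by 0.44 on the log2 scale (0.17 to 0.70; limma adjusted p = 0.0224), a call lost without NC2 (adjusted p = 0.0502) or NC4 (0.0518). In SZ-A against NC the rise was 0.46 (0.28 to 0.63; limma adjusted p = 0.00469). The means of SZ-A and HFD were 45.6 and 45.5, a log2 difference of 0.02 with an interval of -0.23 to 0.27.

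Phka2 (ENSMUSG00000031295, chrX:160502166-160598878, plus strand), the liver regulatory subunit of the kinase that switches phosphorylase on, was low, with group means of 3.49 to 3.75 FPKM. Its values overlapped in all 3 groups, and its largest log2 difference was 0.10 (-0.18 to 0.38), in HFD against NC. Pygl and Phka2, enzyme and activating kinase, gave different calls in the same livers, and the difference between their changes was not tested.

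**Figure D2:**
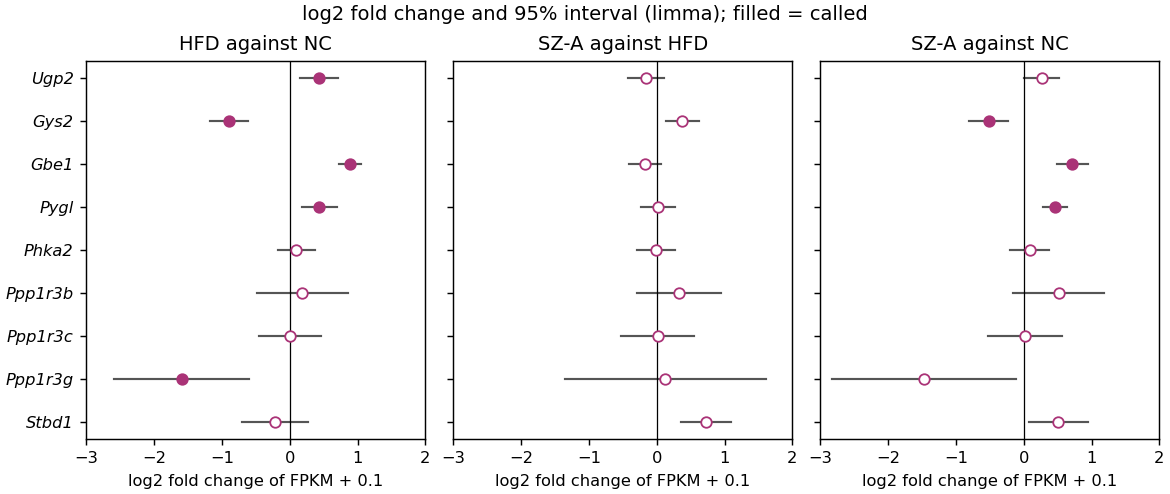
Log2 fold change of FPKM + 0.1 for each gene (points) with its 95% interval (lines) in the 3 comparisons, fitted with limma; filled points were called. Gys2 at -0.90 and Gbe1 at 0.89 stand on opposite sides of 0 in HFD against NC, and no point is filled in SZ-A against HFD.

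Ppp1r3b, Ppp1r3c and Ppp1r3g encode glycogen-targeting subunits, which bind protein phosphatase 1 and bring it to synthase and phosphorylase. Ppp1r3b (ENSMUSG00000046794, chr8:35375739-35388139, plus strand), the main liver subunit, varied widely among mice of 1 group, with a coefficient of variation of 34.7% to 35.4%, where Gbe1 had 6.34% to 17.0%. The 6 NC mice had 13.2 to 45.3 FPKM (median 36.2), the HFD mice 18.8 to 57.1 (median 36.9) and the SZ-A mice 27.6 to 67.6 (median 50.4). The groups overlapped broadly. SZ-A differed from HFD by 0.33 (-0.29 to 0.95) and from NC by 0.51 (-0.16 to 1.18) on the log2 scale, and HFD from NC by 0.18 (-0.49 to 0.85). The lowest value, 13.2, was that of NC5. Without NC5 the differences from NC were 0.26 for SZ-A and -0.07 for HFD, none of them called. A long non-coding RNA gene on the other strand, of the bidirectional promoter type, overlaps Ppp1r3b and had a mean of 0.494 FPKM. Since the library kit does not mark strand, reads of the 2 cannot be told apart where they overlap.

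Ppp1r3c (ENSMUSG00000067279, chr19:36731737-36736653, minus strand), also known as PTG, had nearly the same mean in NC (17.7) as in HFD (17.65), and 18.4 in SZ-A. Single mice ran from 10.6 to 31.6 FPKM, and the intervals of the log2 differences reached 0.47 for HFD against NC and 0.55 for SZ-A against HFD, so that differences of those sizes lie within them.

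Ppp1r3g (ENSMUSG00000050423, chr13:35958839-35970388, plus strand) was the scarcest member, with 3 to 208 fragments per mouse. The NC mice had 0.929, 2.11, 2.57, 3.81, 0.940 and 1.87 FPKM, the HFD mice 0.474, 0.921, 0.0792, 0.784, 0.421 and 1.22, and the SZ-A mice 0.625, 0.0561, 1.10, 0.185, 3.36 and 0.716. NC reached higher than HFD but overlapped it. Ppp1r3g was lower in HFD than in NC by a log2 fold change of -1.60 (-2.59 to -0.60; limma adjusted p = 0.0271), a call lost without NC2, NC3, NC4 or HFD1 (adjusted p = 0.0505 to 0.0607). At these low levels the size depends on the pseudocount, and with 1 in place of 0.1 it was -0.84 (limma adjusted p = 0.0195). It was tested only because NC lifted its mean over the 1 FPKM limit, so that its presence among the members tested favours a difference from NC. In SZ-A against NC the difference of -1.47 (-2.82 to -0.11) was not called (adjusted p = 0.162), and it turned on 1 mouse. Without SZ-A5, the mouse at 3.36, it was -1.93 with a limma adjusted p of 0.0333.

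Stbd1 (ENSMUSG00000047963, chr5:92603041-92606579, plus strand) encodes starch-binding domain protein 1, a membrane protein that holds glycogen and is known for taking it to the lysosome through the autophagy protein GABARAPL1. The NC mice ranged from 27.9 to 69.3 FPKM (median 57.6), the HFD mice from 33.4 to 61.4 (median 50.4) and the SZ-A mice from 65.4 to 103.9 (median 74.7). All SZ-A mice lay above all HFD mice, while NC overlapped both. Groups that did not overlap between SZ-A and HFD were found for 1.28% of the genes tested, 0.793% with SZ-A above.

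The mean of Stbd1 in SZ-A was 77.5 ± 14.2, beside 47.6 ± 11.8 in HFD and 55.9 ± 15.1 in NC. Stbd1 in SZ-A was 1.65 fold (1.28 to 2.13) that in HFD, a log2 difference of 0.72 (0.36 to 1.09). After adjustment over all genes it was not called (limma adjusted p = 0.0961). Over 24 alternative settings the log2 difference stayed between 0.55 and 0.81 and the adjusted p between 0.0408 and 0.2003, and it was called in 1 of them, with sample weights. Against NC the difference was 0.51 (0.08 to 0.94; adjusted p = 0.126), and HFD differed from NC by -0.21 (-0.70 to 0.27). Both values were moved by NC5, the mouse at 27.9, and without it they were 0.32 and -0.40, still not called.

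In SZ-A against HFD none of the 9 members was called by limma, where 0.147% of all genes were. At an unadjusted p under 0.05 there were 2, Gys2 and Stbd1, beside 14.8% of all genes. With voom on the fragments none was called, and with sample weights those 2 were. The median log2 fold change was 0.02 over the members and 0.03 over all genes. Since SZ-A and NC are each compared with the same HFD mice, the opposite signs of Gys2 in HFD against NC and SZ-A against HFD share those mice and are not separate evidence.

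In SZ-A against NC 3 of the 9 were called, Gbe1 and Pygl higher and Gys2 lower, beside 9.6% of all genes, 5.31% higher and 4.3% lower. Gbe1 and Pygl did not overlap NC, and 5.5% of all genes had groups that did not overlap, 2.83% with SZ-A above NC. The Gys2 call was lost without NC2, NC4, SZ-A2 or SZ-A6 (adjusted p = 0.0553 to 0.0601). The median log2 fold change was 0.27 over the members and -0.01 over all genes.

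Within single mice Gys2 was set against Pygl, Gbe1, Ugp2 and Stbd1 by the ratio of their FPKM. The ratios were chosen with the values known and are given with no test and no share over other pairs of genes. Gys2 over Pygl averaged 3.47 ± 1.03 for NC, 1.38 ± 0.387 for HFD and 1.72 ± 0.248 for SZ-A mice (SD, n = 6 each). The lowest NC mouse had 2.57 and the highest of the other groups 2.06, so neither high-fat group overlapped NC. Gbe1 over Gys2 averaged 0.114 ± 0.0266, 0.387 ± 0.0628 and 0.264 ± 0.0379 in the same order. HFD and SZ-A lay wholly above NC here and overlapped each other through 1 mouse of SZ-A at 0.335. For HFD this had to follow, as Gbe1 lay wholly above NC and Gys2 wholly below it. Ugp2 over Gys2 was 0.851, 2.15 and 1.48 in the same order, and both high-fat groups were above NC. Stbd1 over Gys2 was 0.496, 0.786 and 1.02, with SZ-A above NC in every mouse. A ratio within a mouse shows unequal change and does not say which of the 2 genes changed.

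**Figure D3:**
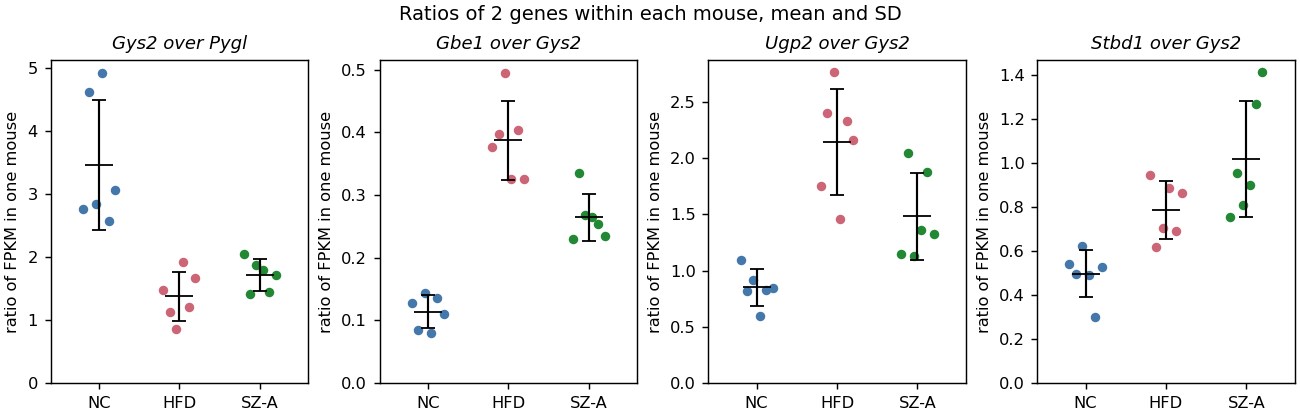
Ratio of the FPKM of 2 genes within each mouse (points), with the mean (bar) and SD of the 6 mice per group, on axes from 0. Gys2 over Pygl is above 2.5 in every NC mouse and at or below 2.06 in every HFD and SZ-A mouse, and Gbe1 over Gys2 is at or below 0.144 in NC and at least 0.230 elsewhere.

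The liver forms dominated their families in all groups. Gys2 made up 98.8% to 99.7% of Gys1 and Gys2 FPKM together in every mouse, Gys1 being the form of muscle and other tissues, at a mean of 0.481 FPKM in NC. Pygl made up 93.7% to 97.6% of Pygl, Pygb and Pygm, the liver, brain and muscle phosphorylases. Pygb had means of 1.16 in NC and 1.55 in HFD, with 1.30 in SZ-A mice, and no call in any comparison. Pygm had medians of 0.349 to 0.411 and reached 1.16 in HFD3, the mouse with the highest sum of 5 skeletal muscle markers, 35.4 FPKM beside a median of 0.394 in HFD. Whether muscle RNA gave that Pygm value was not tested.

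**Figure D4:**
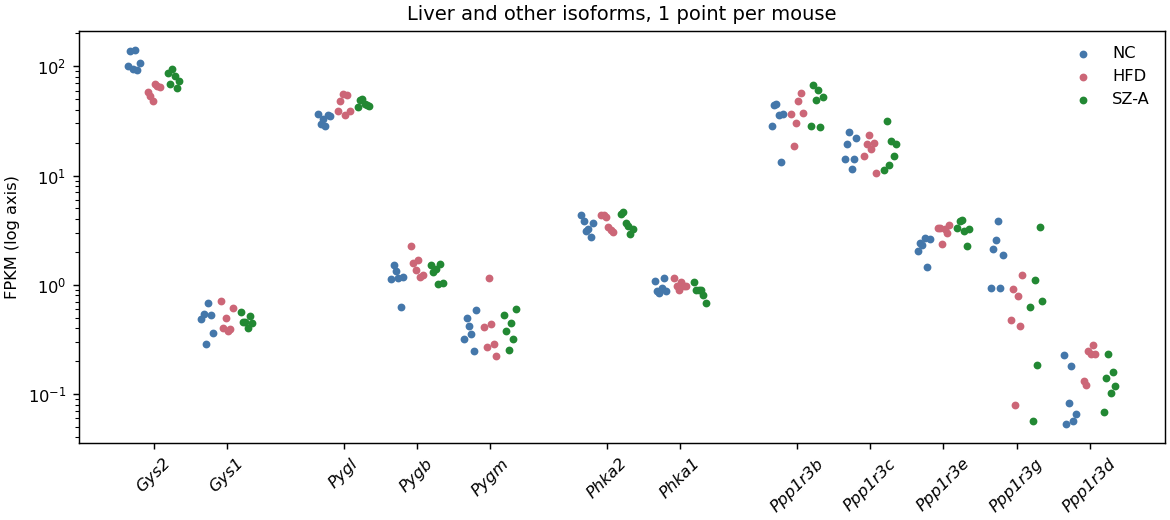
FPKM on a log axis of liver and other forms of synthase, phosphorylase, phosphorylase kinase and targeting subunits, with 1 point per mouse. Gys2 and Pygl lie far above Gys1, Pygb and Pygm in each mouse, and Ppp1r3g spreads from 0.0561 to 3.81.

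The wider pathway was read from 7 lists with 44 genes, of which 36 passed the expression filter. In HFD against NC 7 of the 36 were called higher and 7 lower, beside 10.7% and 9.49% of all genes, with a median of -0.04 over the lists and -0.03 over all genes. In SZ-A against HFD 1 was called, beside 0.147% of all genes, and in SZ-A against NC 4, beside 9.6%. Gyg, glycogenin, which primes the chain, had 2.14 in NC and 2.997 in HFD (adjusted p = 0.0894).

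Among the subunits of phosphorylase kinase, Phkg2, the liver catalytic subunit, fell in HFD against NC by 0.28 on the log2 scale (limma adjusted p = 0.0493). Calm2, a gene of calmodulin, which is also a subunit of this kinase but serves many other proteins, fell in HFD against NC by 0.52 (limma adjusted p = 0.0036). Of the phosphatase genes, Ppp1cb, a catalytic subunit, fell in HFD by 0.26 (limma adjusted p = 0.013). Ppp1r3e, another glycogen-targeting subunit, rose in HFD by 0.47 (adjusted p = 0.037) and in SZ-A against NC by 0.54 (adjusted p = 0.0499). At group means of 2.25 (NC), 3.11 (HFD) and 3.29 (SZ-A) it was well below Ppp1r3b and Ppp1r3c per length.

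Gsk3a, a kinase that phosphorylates and so inhibits glycogen synthase, fell in HFD against NC by 0.27 (limma adjusted p = 0.0171). It was the only call among 6 kinases and quality control genes. Nhlrc1 and Epm2a, the malin and laforin genes of Lafora disease, had the largest log2 differences of that list, at 0.43 for Nhlrc1 in HFD against NC, -0.41 for Nhlrc1 in SZ-A against HFD and 0.27 for Epm2a in SZ-A against NC, and none was called. In the lysosomal list Gaa, the acid α-glucosidase that digests glycogen in lysosomes, fell in HFD by 0.51 (limma adjusted p = 0.000971), from 32.7 ± 2.82 to 22.9 ± 1.98 FPKM, and was also lower in SZ-A than in NC (-0.34, limma adjusted p = 0.00908). Lamp1, a lysosomal membrane protein, rose in HFD by 0.39 (adjusted p = 0.00178). Against HFD, SZ-A mice had 25.7 FPKM of Gaa and 242.5 of Lamp1, beside 22.9 and 277.3, and neither was called (adjusted p = 0.248 and 0.1602). The Lamp1 values of the 2 groups did not overlap, which was so for 1.28% of all genes tested. Gabarapl1, the partner of Stbd1, had means of 190.6, 226.3 and 219.1 FPKM in NC, HFD and SZ-A and was not called.

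In glucose handling, G6pc, glucose 6-phosphatase, which frees glucose for export, fell in HFD by 1.26 (limma adjusted p = 0.0305). Slc37a4, the transporter of glucose 6-phosphate that serves it, had means of 95.6 (NC), 49.3 (HFD) and 67.2 (SZ-A), and was not called (adjusted p = 0.0661 for HFD against NC and 0.2502 for SZ-A against HFD).

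Among receptors of hormones that act on liver glycogen, Adra1b, an adrenergic receptor, rose in HFD against NC by 1.02 (limma adjusted p = 0.0134). Avpr1a, the vasopressin receptor of liver, fell by 1.57 (adjusted p = 0.000467) and was the 1 gene of the 36 called in SZ-A against HFD, higher by 1.43 (limma adjusted p = 0.0103). The glucagon receptor gene Gcgr and the insulin receptor gene Insr were not called in any comparison.

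**Figure D5:**
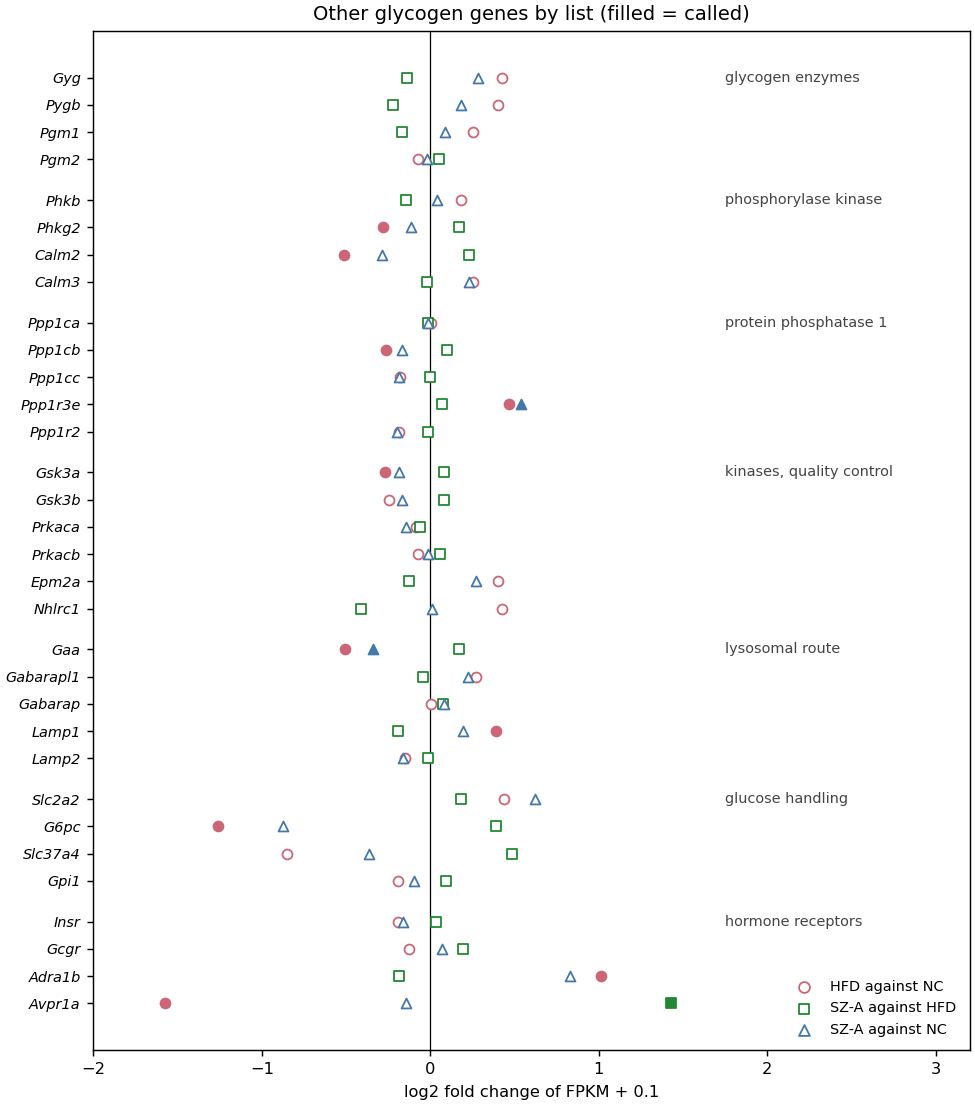
Log2 fold change of FPKM + 0.1 for tested genes of the 7 lists in the 3 comparisons; filled symbols were called. Avpr1a is the only filled square, the symbol of SZ-A against HFD, at 1.43, and stands at -1.57 in HFD against NC.

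The genes most like Stbd1 over the 18 mice, by the Pearson correlation of log2(FPKM + 0.1), were Cdc42ep4 (r = 0.936), Lrrc3 (0.845), Ptges3-ps (0.814), Gm15542 (0.806) and Gm11847 (0.806). After the group means were taken out, Cdc42ep4 still had r = 0.911. These are descriptions over mice that share libraries and group differences. Cdc42ep4 had means of 17.2, 16.5 and 22.0 FPKM in NC, HFD and SZ-A, the same order of groups as Stbd1.

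In whole liver, fewer cells of a type and less RNA per cell cannot be told apart. Hepatocyte markers were high in all mice, with a summed level of 6 genes of 41881 to 60217 FPKM for NC mice, 28409 to 47508 for HFD mice and 33438 to 59381 for SZ-A mice, and 2 of the 6 were called lower in HFD than in NC, beside 9.49% of all genes. Of 6 Kupffer cell and macrophage markers 3 were called higher in HFD, with sums of 87.3 to 181.8 in NC and 136.2 to 254.9 in HFD, and of 6 stellate cell markers 4, with sums of 40.1 to 56.7 and 46.6 to 88.3, beside 10.7% of all genes called higher. In SZ-A against HFD the macrophage marker Cd68 was called lower, beside 0.147% of all genes called. Median log2 fold changes there were -0.25 for macrophage, -0.40 for stellate cell and 0.27 for hepatocyte markers. No stellate cell or hepatocyte marker was called in that comparison. Adipocyte markers summed to at most 1.26 FPKM in any mouse. Of 9 tested circadian clock genes 4 were called in HFD against NC and 5 in SZ-A against NC, beside 20.2% and 9.6% of all genes. The summed level of 11 clock genes ran from 29.2 to 76.1 for NC, from 74.0 to 93.2 for HFD and from 58.2 to 119.9 for SZ-A mice, and its lowest value was that of NC5, the mouse also lowest in Stbd1 and Ppp1r3b. The part of cell makeup and of clock phase in the differences of Gys2, Gbe1, Pygl, Ppp1r3b and Stbd1 was not tested.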

How the data were processed

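Liver poly-A RNA of 18 mice was prepared with a kit that does not mark strand and sequenced as paired-end reads. Per the submitters' notes, reads were aligned with HISAT2 2.0.5 to mm10 (GRCm38) and fragments counted with featureCounts 1.5.0-p3. The authors deposited FPKM for all genes, with no filter on low values. They tested counts with DESeq2, which was not repeated, and the deposited values are not counts. Fragments worked back from the FPKM were tested with voom only, as an alternative. For SZ-A against HFD the study reported more genes at the same thresholds than the 15 called here by limma or the 32 by voom. The absence of called members in that comparison is therefore a result of the main limma fit and of voom, and with sample weights 2 were called. It cannot be carried over to the study's own test, whose result for the members is not known here.

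Groups came from the sample titles. FPKM were tested as log2(FPKM + 0.1) with limma 3.58.1 in R 4.3.3 (lmFit, eBayes with an intensity trend) for genes with a mean of at least 1 FPKM over the 18 mice. Each comparison was fitted on its own 2 groups of 6, with no covariates and with Benjamini-Hochberg adjustment over all 10216 genes. The fit was tested on simulated data. Summaries used Python 3.11.15.

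The 9 genes, the gene lists, the ratios and the alternatives were chosen with earlier results of these data known. The genes named are the 9, the genes of the 7 lists that were called or changed most in a comparison, Gys1, Pygb and Pygm, and the 5 most like Stbd1. Gyg, Gabarapl1, Gcgr and Insr are not covered by that rule and were added once their values had been seen. A few list genes that meet it are not reported here.

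Alternatives were pseudocounts of 1 and 0.01, no filter, a mean of at least 5 FPKM, FPKM rescaled to a common sum, median-ratio scaling, voom on the fragments, sample weights, a replicate block, all mice in 1 fit, no trend in eBayes, no limit on fold change and each mouse left out in turn. Leaving out NC5 with NC6, and HFD5 with SZ-A2, was chosen after seeing the data. Mice of a group always differed beyond counting noise, the smallest chi-square being 20.3 times its degrees of freedom. The labels name no batch.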

Additional observations from a re-analysis of the deposited data

Results flagged for a closer look

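In 2 of the 27 sets of 6 mice (9 genes in 3 groups) 1 mouse stood apart from the other 5, by a gap of more than 0.625 of the range of the set. Chance gives about 1 in 20 such sets. Ppp1r3g was 3.355 FPKM in SZ-A5, the highest SZ-A mouse, with a gap of 0.684 of the range. Stbd1 was 27.86 FPKM in NC5, the lowest NC mouse, with a gap of 0.637 of the range. Leaving out the first brought the difference of Ppp1r3g between SZ-A and NC to a limma adjusted p of 0.0333, from 0.162. That gene was tested only because NC lifted its mean over the limit, and SZ-A5 was picked from these same values. The lower p-value is therefore no separate evidence of a difference. Leaving out the second moved the log2 difference of Stbd1 between SZ-A and NC from 0.51 to 0.32.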

How the results depend on the processing

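The direction of every called member was kept in each alternative that was run. Of 642 values of the members' log2 fold changes under alternatives, 613 kept their side of the threshold, 25 lost the call, 4 gained it and 0 reversed. Reversed means a change of sign where either fit made a call. Small differences that were never called did change sign in some alternatives. This was so in 8 of 24 for Pygl and in 10 of 24 for Ppp1r3c, both in SZ-A against HFD. The calls of Gbe1 in both comparisons with NC, of Gys2 in HFD against NC and of Pygl in SZ-A against NC were kept in all of their 24 alternatives. The group means moved by less than 1 SD under both rescalings in 54 of 54 cases.

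The number of members called in HFD against NC, 5, was 2 with no filter on low values and 2 to 5 when 1 mouse was left out. In SZ-A against HFD, 0, it was 2 with sample weights, where Gys2 had an adjusted p of 0.0443 and Stbd1 of 0.0408, and 0 in each fit without 1 mouse. In SZ-A against NC, 3, it was 2 to 4 without 1 mouse. With no filter, adjusted p-values in HFD against NC were 0.0798 for Ugp2, 0.0562 for Pygl and 0.0839 for Ppp1r3g, and that of Gys2 in SZ-A against NC was 0.0816. That fit adjusts over 27266 genes. With all 18 mice in 1 fit Ppp1r3g had 0.0686 in HFD against NC, and with sample weights 0.0383 in SZ-A against NC. Without NC5 and NC6 Ugp2 had 0.099. A mean of at least 5 FPKM left out Phka2 and Ppp1r3g, which then have no value.

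Over all genes, HFD against NC had 2062 calls, 1271 at a mean of at least 5 FPKM, and 1646 to 2145 without 1 mouse. SZ-A against HFD had 15 calls, 0 with no filter, 26 at a mean of at least 5 FPKM, 216 after rescaling to a common sum, 32 with voom, 35 with all mice in 1 fit, 233 with sample weights, 132 without HFD5 and SZ-A2, and 2 to 49 without 1 mouse, the highest without SZ-A2 (49) and HFD5 (45). SZ-A against NC had 981 calls, 564 with no filter, 1682 with sample weights and 601 to 1179 without 1 mouse, the lowest without SZ-A3 (601) and SZ-A6 (629). The cause of these shifts was not tested. Rescaling to a common sum moved the median of all genes to 0.15 in HFD against NC and -0.15 in SZ-A against HFD. The share of calls that were higher went from 53.0% to 86.3% and from 53.3% to 4.63%. Under it Gys2 still fell in HFD, by 0.70, and Gys2 and Stbd1 were 0.20 and 0.55 higher in SZ-A than in HFD, not called.

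Replicate numbers showed no clear pairing of the mice, though the correlations below cannot exclude one. Deviations of mice with the same number correlated at -0.117 to 0.098 (HFD against NC), -0.066 to 0.292 (SZ-A against HFD) and -0.043 to 0.112 (SZ-A against NC), and 1, 1 and 3 of 6 mice correlated best with their own number. With the replicate block 1647, 0 and 922 genes and 4, 0 and 3 members were called, and Ugp2 in HFD against NC was lost (0.0747). At this number of mice the widest interval of a member was that of Ppp1r3g in SZ-A against HFD, -1.36 to 1.62.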
